A study of Mus musculus with 6 samples.

Results

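The histone gene clusters of chromosomes 13 and 3 are described here through the H3K27ac peaks that overlap 3 windows of mouse build mm39. The windows are 13:21870000-22100000 (230 kb, the smaller chr13 cluster), 13:23500000-24000000 (500 kb, the larger chr13 cluster) and 3:96125000-96187000 (62 kb, the chr3 cluster). Membership rests on position alone, and 140 of the 79419 deposited peaks were members: 42 of 29276 in wild type, with 47 of 25666 in Bmal1KO and 51 of 24477 in Mfp2KO. Every member lay wholly inside its window. The cells were RAW264.7, a mouse line labelled as macrophage-like, of 3 genotypes: wild type (Naive in the titles), Bmal1 knockout (Bmal1KO) and Mfp2 knockout (Mfp2KO). BMAL1 is a transcription factor at the core of the circadian clock, and MFP2, the product of Hsd17b4, is a peroxisomal enzyme of fatty acid β-oxidation. All were grown in DMEM with serum, no stimulus is stated, and from the labels a knockout may be 1 clone or many. There was 1 ChIP and 1 input library per genotype, or 6 libraries, so no difference was tested between genotypes and the values compare these libraries.

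Replication-dependent histone genes encode the bulk of the H2A, H2B, H3 and H4 proteins of the nucleosome core and the H1 linker histones. They lie close together in clusters, have no introns, and are transcribed mainly in S phase, when newly made DNA is packed into chromatin. Their messenger RNAs end in a stem-loop in place of a poly(A) tail. H3K27ac is a mark found at active promoters and enhancers. Cell cycle state was not measured in these libraries, and H3K27ac says nothing direct about the amount of histone RNA.

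The gene content of such clusters was taken from RefSeq on build GRCm38.p6, which differs from the build of the peaks, so no peak was assigned to a gene and no gene run was matched to a window. On chromosome 13 RefSeq lists a run of 29 histone genes between Btn2a2 and Trim38, with 5 H1, 5 H2A, 6 H2B, 7 H3 and 6 H4 genes and the iron regulator Hfe among them. A run of 19 lies between Olfr1359 and Zfp184, of which 18 are coding, and smaller runs of 5 and 2 also lie on this chromosome. On chromosome 3 a run of 10 lies between Bola1 and Fcgr1, with 4 H2A, 2 H2B, 3 H3 and 1 H4 gene. In all, 64 coding genes were counted, and 59 of them had a promoter in the RefSeq table.

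The 150 bases before the start of 7 of these genes are shown as examples of the elements searched. In these bases the family examples hold as many kinds of element as any promoter of their family, so they may not be typical. H1f3, H2ac8, H2bc3, H3c4 and H4c4 are 1 gene per family, each from the run of 29, and H2ac18 and H2ac19 are a near-identical pair of the chromosome 3 run. Capitals mark the CCAAT box on either strand. The string TATAAA of many TATA boxes is marked in the same way, as are the octamer ATGCAAAT known from H2B promoters and its inner string GCAAA, so a match to the octamer is also a match to the inner string. H2ac8 and H2ac19 are on the minus strand of GRCm38.p6 and the others on the plus strand, and each sequence reads toward its gene.
H1f3: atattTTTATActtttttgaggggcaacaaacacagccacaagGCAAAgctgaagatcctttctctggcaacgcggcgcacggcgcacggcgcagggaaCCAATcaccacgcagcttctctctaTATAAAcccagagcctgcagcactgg
H2ac8: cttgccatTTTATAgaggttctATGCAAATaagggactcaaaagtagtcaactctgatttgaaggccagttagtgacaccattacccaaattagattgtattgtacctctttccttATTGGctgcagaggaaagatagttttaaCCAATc
H2bc3: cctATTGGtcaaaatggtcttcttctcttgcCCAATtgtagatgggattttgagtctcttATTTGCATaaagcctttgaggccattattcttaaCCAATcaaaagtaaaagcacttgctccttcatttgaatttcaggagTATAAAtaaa
H3c4: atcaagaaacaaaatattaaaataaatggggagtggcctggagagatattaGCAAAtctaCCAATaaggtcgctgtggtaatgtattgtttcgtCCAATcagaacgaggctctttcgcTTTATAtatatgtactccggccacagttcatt
H4c4: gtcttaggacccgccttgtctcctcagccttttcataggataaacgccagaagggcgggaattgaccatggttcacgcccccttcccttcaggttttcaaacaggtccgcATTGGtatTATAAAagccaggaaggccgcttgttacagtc
H2ac18: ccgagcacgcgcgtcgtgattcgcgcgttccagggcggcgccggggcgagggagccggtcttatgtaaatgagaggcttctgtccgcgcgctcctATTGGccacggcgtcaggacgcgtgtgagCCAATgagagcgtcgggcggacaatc
H2ac19: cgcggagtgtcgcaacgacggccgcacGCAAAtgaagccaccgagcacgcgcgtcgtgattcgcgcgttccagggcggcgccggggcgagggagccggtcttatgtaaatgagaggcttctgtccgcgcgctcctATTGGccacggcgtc

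CCAAT was the element most widely shared. It stood in the 250 bases before the start of 50 of 60 histone promoters, or 83.3%, against 33.8% of the 32851 mouse promoters in the RefSeq table. All 6 H1, 17 H2A and 16 H2B promoters held it, as did 8 of 10 of H3 and 3 of 11 of H4. TATAAA was found in 28 histone promoters, or 46.7%, against 12.4% of all. The octamer ATGCAAAT was found in 13, or 21.7%, against 1.60%. These were 7 of the 16 H2B promoters and 6 of the 17 H2A promoters, and no H1, H3 or H4 promoter held it. GCAAA, a shorter string, was in 65% of the histone promoters and 38.8% of all. In 10 cases an H2A and an H2B gene started within 500 bp of each other on opposite strands, so that their windows overlap and a match can count for both. H2ac8 and H2bc8 form such a pair, with starts 180 bp apart. A match is only a string of letters and no binding was measured.

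Some of these promoters are near-identical copies. In 6 pairs of genes the promoters were at least 95% identical over 150 bases, and 5 of these pairs had no difference in that stretch. The stretch ends short of the start and was placed at its best fit in the other promoter. It is thus not exactly the bases shown above, and bases nearer the start may differ. H2ac18 and H2ac19 are shown above, and the stretch they share is offset between the sequences because their annotated starts differ. H3c14 and H3c15, H4c17 and H4c18, and H2ac23 and H2ac24 are further pairs. How reads that map to more than 1 place were treated is not stated, so tags at such copies are uncertain in every genotype.

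All 3 cluster windows held H3K27ac peaks in all 3 genotypes. Because no peak was assigned to a gene, some may belong to other genes in the windows. The tag count is the deposited number of ChIP reads in a peak, scaled by the authors to 10 M per library. In the smaller chr13 cluster the peaks held 1748 normalized tags in wild type, with 2301 in Bmal1KO and 4256 in Mfp2KO. In the larger chr13 cluster they held 4651, 5838 and 11719 tags in that order, and in the chr3 cluster 3084, 3506 and 5347. The order of the genotypes was thus the same in each cluster, with wild type lowest and Mfp2KO highest. The step from wild type to Mfp2KO was smaller at chr3 than at the chr13 clusters.

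As ratios to wild type, tags in Bmal1KO were 1.32 at the smaller chr13 cluster (exact 95% counting interval 1.25 to 1.39), 1.26 at the larger (1.22 to 1.30) and 1.14 at chr3 (1.09 to 1.18). In Mfp2KO the ratios were 2.43 (2.33 to 2.55), 2.52 (2.45 to 2.59) and 1.73 (1.67 to 1.80). These intervals cover counting error only, since no molecular identifiers are stated and there is no replicate. Both sets of ratios share the same wild-type library. Over the whole peak lists, tags in peaks were 0.965 of wild type in Bmal1KO and 1.48 of wild type in Mfp2KO, so every cluster lay above its list. The headers give 38.71% of ChIP tags in peaks in wild type and, in the knockouts, 37.35% (Bmal1KO) and 57.15% (Mfp2KO), with ChIP depths of 15.8, 12.5 and 15.8 M tags.

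The size of the Mfp2KO ratio depends on how the libraries are scaled. With tags taken as a share of all tags in peaks, the Mfp2KO ratio was 1.65 at the smaller chr13 cluster, 1.71 at the larger and 1.17 at chr3. The same measure in Bmal1KO gave 1.36, 1.30 and 1.18. On this scale Bmal1KO and Mfp2KO stood nearly level at chr3 (1.18 and 1.17), while Mfp2KO remained the higher at both chr13 clusters. Histone cluster peaks made up 0.245% of all peak tags in wild type, with 0.312% in Bmal1KO and 0.373% in Mfp2KO.

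Fixed windows along the genome, added after the data were seen, give another background. Tiles of 230 kb with at least 500 wild-type tags had a median ratio of 0.938 in Bmal1KO (quartiles 0.739 and 1.16) and 1.40 in Mfp2KO (1.05 and 1.80). For tiles of 500 kb the medians were 0.952 (0.775 and 1.14) and 1.44 (1.11 and 1.76). Both chr13 clusters therefore lay above the upper quartile of tiles of their length in each knockout. For tiles of 62 kb the medians were 0.900 (0.687 and 1.16) in Bmal1KO and 1.34 (0.970 and 1.76) in Mfp2KO. The chr3 ratios of 1.14 and 1.73 lay just inside those upper quartiles.

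**Figure D1:**
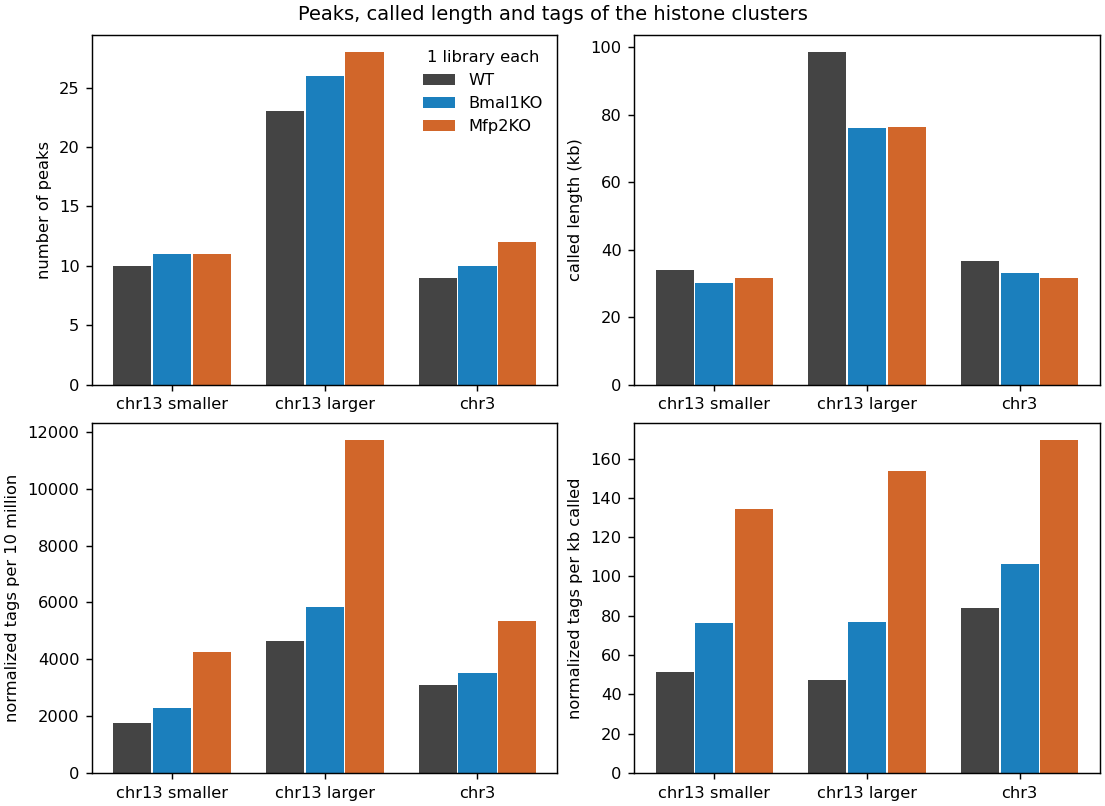
Number of peaks, called length in kb, normalized tags per 10 M and normalized tags per kb called, for each histone cluster, with 1 bar per genotype and 1 library behind each bar. Peaks number 10, 11 and 11 in the smaller chr13 cluster, called length is highest in wild type in every cluster, and tags and tags per kb are highest in Mfp2KO.

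More peaks covered less sequence in the knockouts. The smaller chr13 cluster held 10 peaks in wild type and 11 in each knockout. The larger held 23, 26 and 28, and the chr3 cluster 9, 10 and 12. Their summed length went the other way: 34.0, 30.1 and 31.7 kb at the smaller chr13 cluster, 98.5, 76.0 and 76.2 kb at the larger, and 36.8, 33.0 and 31.6 kb at chr3. Over all 3 clusters the called length in the knockouts was 82.1% (Bmal1KO) and 82.4% (Mfp2KO) of wild type. For the whole lists it was 69.9% and 69.3%, so the clusters stayed closer to the wild-type length than the lists did. The chr3 window was the most densely covered, at 59.3% of its bases in wild type, with 53.2% in Bmal1KO and 50.9% in Mfp2KO. The corresponding shares were 14.8%, 13.1% and 13.8% of the smaller chr13 window and 19.7%, 15.2% and 15.2% of the larger.

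Tags per kb of called sequence were accordingly further apart than tags. Wild type, Bmal1KO and Mfp2KO had 51.4, 76.5 and 134 tags per kb at the smaller chr13 cluster and 47.2, 76.8 and 154 at the larger. At chr3 the densities were 83.9, 106 and 169. The chr3 cluster was the densest in each genotype. The ratio of density to wild type over all 3 clusters was 1.496 in Bmal1KO and 2.73 in Mfp2KO, and over the whole lists it was 1.38 and 2.13. Regions were called separately in each list, so tags per kb also move with where each call ends.

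Input tags moved in the same direction. Input per kb in the member peaks, per 10 M input tags, was 4.03 in wild type and, in the knockouts, 4.69 (Bmal1KO) and 6.98 (Mfp2KO). The ratios to wild type were 1.16 and 1.73, beside 1.13 and 1.67 over the whole lists. ChIP tags over input tags, pooled over the member peaks, were 13.9 in wild type, with 17.9 in Bmal1KO and 21.9 in Mfp2KO. This enrichment was 1.28 times wild type in Bmal1KO and 1.57 times in Mfp2KO, against 1.22 and 1.27 for the whole lists. At chr3 alone it was 1.06 and 1.25 times wild type, below the lists in both. The part of input or of copy number in these ratios was not tested.

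**Figure D2:**
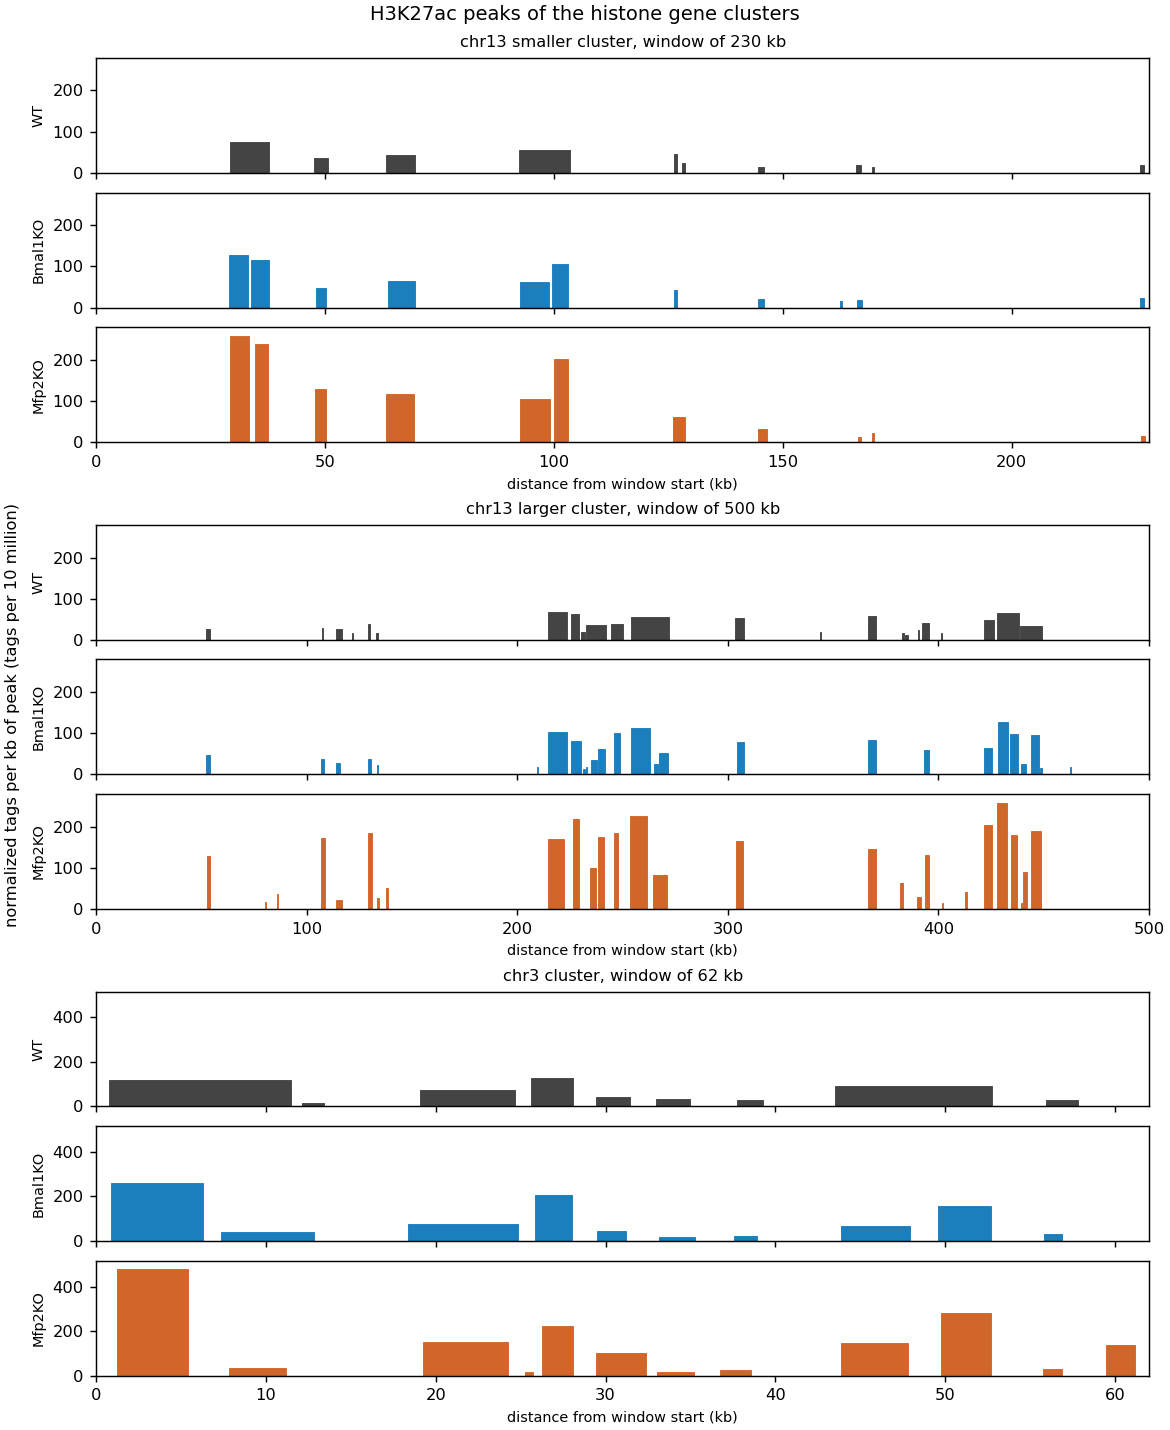
H3K27ac peaks along each histone cluster window, with distance from the window start in kb on the horizontal axis, normalized tags per kb of peak on the vertical axis, and 1 track per genotype. The regions with most summed tags stand at the same distances in all 3 genotypes, though their peaks are not always the tallest in tags per kb. Of the 12 wild-type peaks longer than 5 kb, 8 are met by 2 or more peaks in each knockout.

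Many of the long peaks of wild type were met by more than 1 peak in the knockouts. Of the 12 member peaks longer than 5 kb in wild type, 8 overlapped 2 or more Bmal1KO peaks and 8 overlapped 2 or more Mfp2KO peaks. Over all 2148 wild-type peaks longer than 5 kb, the shares were 44.1% and 41%. Members longer than 5 kb numbered 12 in wild type and, in the knockouts, 7 (Bmal1KO) and 6 (Mfp2KO), and the longest was 18443, 9299 and 7840 bp. In wild type 28.6% of member peaks passed 5 kb, against 7.34% of the list. The median length was 2104 bp against 1707 bp in the list, and it was 1349 bp in the smaller chr13 cluster.

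Region 15 of the larger chr13 cluster shows how the calls differ. Peaks of the 3 lists that overlapped by at least 1 bp were joined into regions, numbered along each window. In region 15 (13:23753724-23772222) wild type had 1 peak of 18443 bp with 1037.5 tags. Bmal1KO had 3 peaks there, of 9299, 2059 and 4039 bp with 1046.7, 53.5 and 211 tags, and Mfp2KO had 2, of 7840 and 6697 bp with 1773.1 and 555.8 tags. The summed tags were 1038, 1311 and 2329, or ratios of 1.26 in Bmal1KO (1.18 to 1.35) and 2.24 in Mfp2KO (2.12 to 2.38). The peak at the lower coordinates thus held most of the tags of the region in each knockout.

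Joining gave 47 member regions of 39754 in all: 10 in the smaller chr13 cluster, 28 in the larger and 9 at chr3. Of these, 32 regions, or 68.1%, were called in all 3 genotypes, against 37.2% of all regions. A further 4 were called in wild type and Mfp2KO, or 8.51% against 4.76% of all regions. In wild type alone 3 were called, or 6.38% against 22.9%, and in Bmal1KO alone 3, or 6.38% against 12.6%. The 5 called in Mfp2KO alone, or 10.6%, were near the 13.3% of all regions. No member region was called in wild type and Bmal1KO alone, or in both knockouts and not wild type. Over all regions these classes made up 7.11% and 2.04%, so few members would fall in either. Pooled over the clusters, member peaks had more tags than their lists, with medians of 72.5, 154 and 295 in wild type, Bmal1KO and Mfp2KO against 41.2, 36.3 and 66.2. The smaller chr13 cluster in wild type was the exception, with a median of 25.8 tags. How much of the higher sharing goes with this was not tested.

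By single peaks, 8 of the 42 wild-type members had no Bmal1KO peak, or 19.0%, where the share of the whole list was 38.9%. No Mfp2KO peak met 5 of the 42, or 11.9%, beside 41.4% of the list. In the other direction, 3 of 47 Bmal1KO members had no wild-type peak (23.6% of the list) and 5 of 51 Mfp2KO members had none (25.4% of the list). At the level of bases, 61.7% of all called sequence in the clusters was called in all 3 genotypes and 14.8% in wild type alone, against 37.5% and 26.2% over the lists.

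The same regions led each cluster in every genotype. Regions 1, 4 and 3 of the smaller chr13 cluster held most tags in each genotype, and together 87.7% of the cluster's tags in wild type, with 91.3% in Bmal1KO and 86.9% in Mfp2KO. At chr3, regions 1, 7 and 2 held 81.8%, 82.0% and 80.1%. In the larger chr13 cluster regions 15, 26 and 11 led, with 50.4%, 54.6% and 46.4%. Tags were therefore spread over more regions there than in the other clusters.

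Each joined region can be set against wild type where both lists have a peak. In Bmal1KO 21 of 32 member regions had more tags than wild type, against 39.7% of the 17614 regions of the genome called in both lists. Tags were at least 2-fold higher in 1 of the 32, where the background was 5.49%, and at least 2-fold lower in 0 of 32, where it was 21.9%. The median ratio was 1.19 in member regions and 0.843 in all regions. Most member regions in Bmal1KO thus lay within 2-fold of wild type. By cluster the median ratio was 1.20 in the smaller chr13 cluster, 1.27 in the larger and 0.929 at chr3, where 3 of 8 regions, numbers 1 to 3, were higher and the summed tags were 1.14 of wild type. Among regions with at least 100 tags in either library, the median was 1.26 in 19 member regions and 0.983 in all. A region can pass this limit through 1 library alone, so the limit is not independent of the ratio.

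In Mfp2KO 30 of 36 member regions had more tags than wild type, against 62.7% of the 16682 regions called in both lists. At least 2-fold higher were 22 of 36, where the background was 31.1%, and at least 2-fold lower 0 of 36, where it was 18.5%. The 22 were 6 of 9 in the smaller chr13 cluster, 15 of 19 in the larger and 1 of 8 at chr3. The median ratio was 2.31 in member regions and 1.35 in all, and by cluster 2.50, 2.41 and 1.49. Among regions with at least 100 tags in either library, the median was 2.46 in 24 member regions and 1.62 in all. At least 2-fold higher were 79.2% of those members and 37.7% of all. At chr3 the median of such regions was 1.72, close to that of all. A region can pass this limit through 1 library alone, so the limit is not independent of the ratio. Regions 1, 4 and 7 of the larger chr13 cluster, region 5 of the smaller and region 4 of chr3 passed through Mfp2KO alone. Each of them was past 2-fold, and no member passed through wild type alone. With tags taken as a share of peak tags, 9 of 36 were at least 2-fold higher (15.5% of all) and 3 of 36 at least 2-fold lower (27.4% of all), and the median was 1.57 against 0.913.

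**Figure D3:**
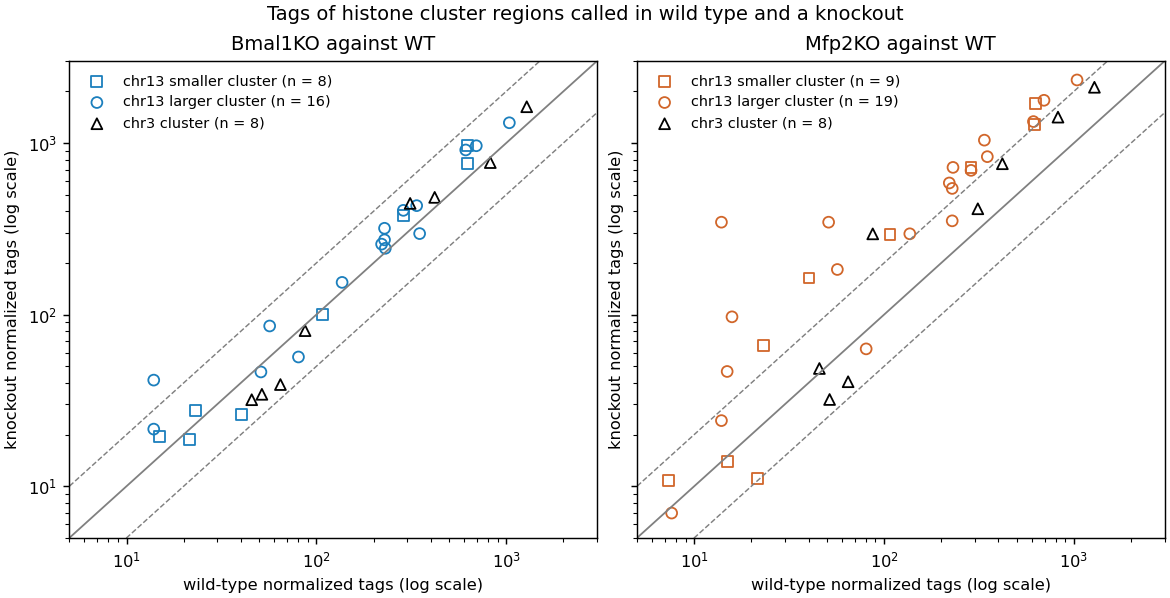
Normalized tags of each histone cluster region in wild type (horizontal) and a knockout (vertical), both on log scales, for the 32 regions called in wild type and Bmal1KO and the 36 called in wild type and Mfp2KO, with each cluster in its own symbol. The solid line is equality and the dashed lines are 2-fold: Bmal1KO points stay within the dashed lines except 1, and 22 Mfp2KO points lie above the upper line.

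The smaller chr13 cluster had most of its tags in 4 regions in the first part of its window. Region 1 (13:21898916-21907652) held 625.6 tags in wild type and, in the knockouts, 966.9 (Bmal1KO) and 1694 (Mfp2KO). Its ratio of 1.55 in Bmal1KO (1.42 to 1.68) was the highest of that cluster, and in Mfp2KO it was 2.71 (2.52 to 2.92). Wild type had 1 peak there and each knockout 2. Region 4 (13:21962404-21973401) held 621.8, 757.1 and 1285 tags, with ratios of 1.22 and 2.07, and was likewise 1 wild-type peak met by 2 in each knockout. Region 3 (13:21933228-21939726), 1 peak in each list, held 286.8, 375.8 and 718.3 tags, with ratios of 1.31 and 2.50. In all 3 regions wild type was lowest and Mfp2KO highest.

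In the weaker regions 2 and 5 of this cluster Mfp2KO stood above wild type, and Bmal1KO lay below it within counting error. Region 2 (13:21917683-21920631) held 107.3 tags in wild type, with 100.5 in Bmal1KO and 293.1 in Mfp2KO. Its ratios were 0.937 in Bmal1KO (0.740 to 1.19) and 2.73 in Mfp2KO (2.29 to 3.29). Region 5 (13:21996086-21998722) held 40.2, 26.3 and 163.2 tags, with ratios of 0.654 in Bmal1KO (0.419 to 1.02) and 4.06 in Mfp2KO (3.10 to 5.49). It was called over 1125, 627 and 2636 bp, so the tags of Mfp2KO were counted over more sequence. Region 6 (13:22014474-22016481) held 23.1, 27.5 and 66.2 tags. Beyond it, 4 regions of the cluster had no more than 21.5 tags in any list. Of these, region 8 (13:22035990-22037240) had 21.5, 18.7 and 11.1 tags and, at 0.516 (0.282 to 0.965), the lowest Mfp2KO ratio of all member regions.

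The larger chr13 cluster held many of its strong regions in groups. Regions 11 to 15 began between 214 and 254 kb from the window start, and regions 25 to 27 between 421 and 439 kb. Regions 16 and 18 stood outside these groups, at 304 and 367 kb, with 220.4 and 228.3 tags in wild type. Region 26 (13:23927698-23938245) held 694.9 tags in wild type and, in the knockouts, 963.4 (Bmal1KO) and 1773 (Mfp2KO), with ratios of 1.39 (1.28 to 1.51) and 2.55 (2.38 to 2.74). Region 11 (13:23714374-23723471), 1 peak in each list, held 611.4, 910.3 and 1332 tags, with ratios of 1.49 and 2.18. The neighbouring region 12 (13:23725406-23732004) held 286.9, 404.9 and 692.3 tags. These regions kept the order of wild type, Bmal1KO and Mfp2KO.

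Region 13 (13:23732670-23742323) departed from that order. It held 349.5 tags in wild type, with 296.4 in Bmal1KO and 832.1 in Mfp2KO, with a ratio of 0.848 in Bmal1KO (0.740 to 0.968) and 2.38 in Mfp2KO (2.15 to 2.63). Region 14 (13:23744338-23750287) held 228.3, 272.5 and 351.7 tags, and its Mfp2KO ratio of 1.54 was the lowest among the regions of this cluster with at least 100 wild-type tags. Its called length was 5949, 2725 and 1887 bp, and its density 38.4, 100 and 186 tags per kb. Region 27 (13:23938778-23949012) held 337.2, 431.2 and 1038 tags, as 1 peak in wild type and 3 in each knockout. Region 25 (13:23921426-23926272), next to region 26, held 230.5, 243.3 and 720.5 tags, with ratios of 1.06 and 3.13. Neighbouring regions thus did not share 1 ratio.

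The largest Mfp2KO ratios stood toward the start of the same window, between 107 and 129 kb,, in regions that were weak in wild type. Region 4 (13:23606835-23608827) held 13.9 tags in wild type and, in the knockouts, 41.5 (Bmal1KO) and 345.4 (Mfp2KO). Its ratio was 2.99 in Bmal1KO (1.78 to 5.15), the sole member region past 2-fold there, and 24.8 in Mfp2KO (16.2 to 39.9). The called length was 500, 1095 and 1992 bp, and density was 27.8, 37.9 and 173 tags per kb. Region 7 (13:23628871-23630803), further on, held 51 tags in wild type, with 46.3 in Bmal1KO and 345.4 in Mfp2KO, a ratio of 0.908 in Bmal1KO and 6.77 in Mfp2KO (5.32 to 8.61). Input density in wild type, Bmal1KO and Mfp2KO was 5.38, 8.16 and 9.79 tags per kb in region 4 and 6.67, 5.25 and 9.62 in region 7. Between them, region 5 (13:23613822-23616825) held 80.4, 56.6 and 63.1 tags and was lower in both knockouts, at 0.704 (0.519 to 0.949) and 0.785 (0.600 to 1.03).

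Other regions of the larger cluster were called in some lists and not in others. Region 19 (13:23881518-23883406) held 15.8 tags in wild type and 97 in Mfp2KO, a ratio of 6.14 (3.995 to 9.76), and had no Bmal1KO peak. Region 21 (13:23889951-23891543) held 14.9 and 46.6 tags in wild type and Mfp2KO and had none in Bmal1KO either. Region 24 (13:23912419-23913578) was called in Mfp2KO alone, with 47.5 tags. A list without a peak may still hold tags under the calling threshold, so no ratio is given there. Region 1 (13:23552028-23554204) was called in every list with 56.7, 85.8 and 183.1 tags, ratios of 1.51 and 3.23. Region 8 (13:23632978-23634099) had 13.9, 21.5 and 24.1 tags, too few to place the ratios of 1.55 (0.848 to 2.85) and 1.73 (0.997 to 3.07) away from 1, and region 23 (13:23901104-23901954) had under 8 tags in wild type and Mfp2KO.

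**Figure D4:**
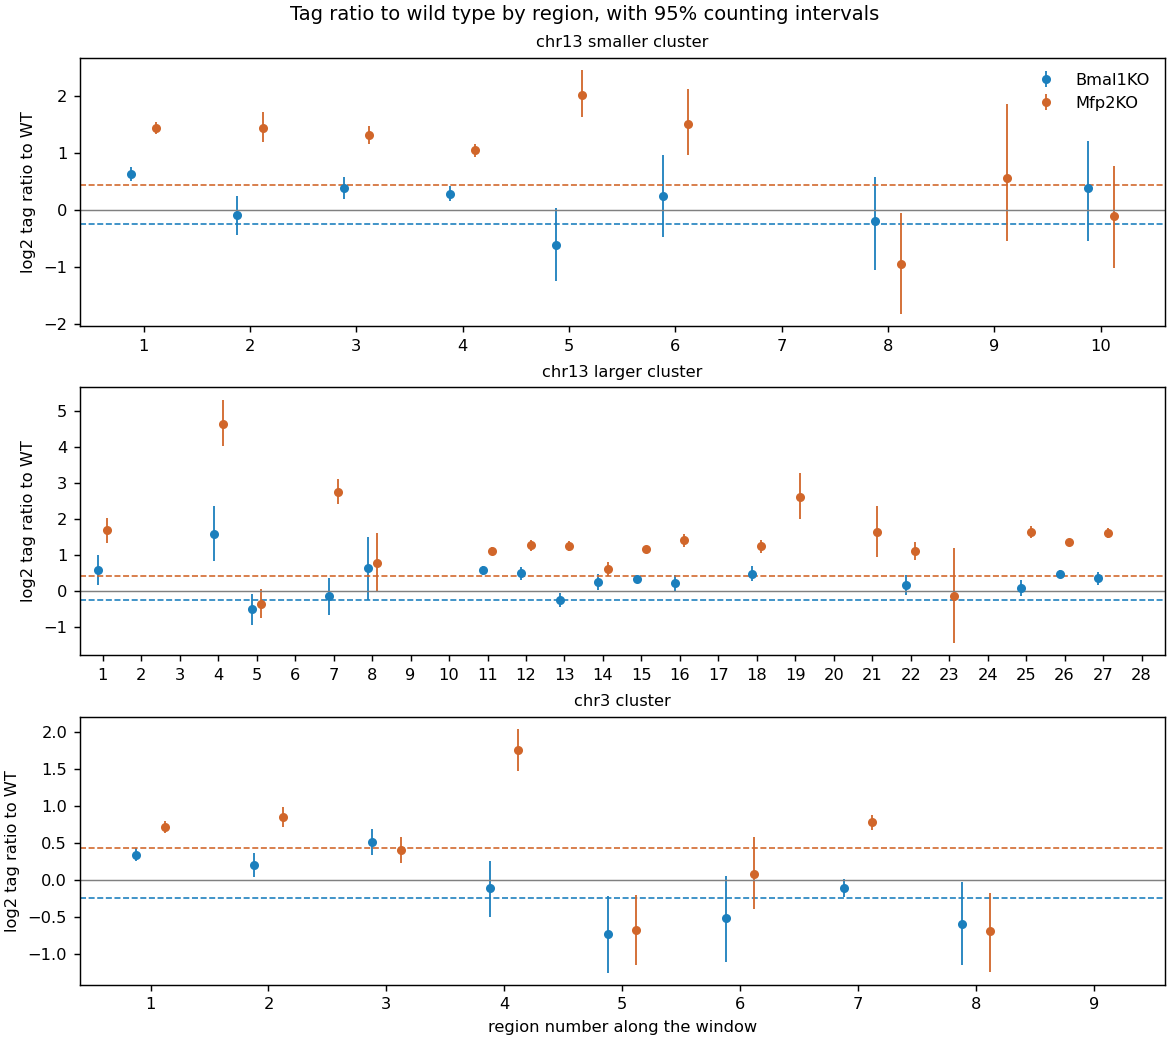
Log2 tag ratio of Bmal1KO and Mfp2KO to wild type for each region in order along the histone cluster windows, with exact 95% counting intervals as bars and the median of all regions of the genome as a dashed line per knockout. Most strong regions of both chr13 clusters lie above the dashed line of each knockout, and chr3 regions 5 and 8 lie below 0 in both.

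The chr3 cluster held the region with most tags of all members in wild type and Bmal1KO, and the one next to region 15 of the larger chr13 cluster in Mfp2KO. This region 1 (3:96125733-96138404) held 1281 tags in wild type and, in the knockouts, 1626 (Bmal1KO) and 2111 (Mfp2KO), with ratios of 1.27 (1.19 to 1.35) and 1.65 (1.56 to 1.74). Its strongest peak was 10738 bp long with 117 tags per kb in wild type, 5419 bp with 260 in Bmal1KO and 4190 bp with 477 in Mfp2KO. Mfp2KO thus had a shorter and denser peak with 1999 tags, where wild type had 1260. Region 7 (3:96168527-96177756) held 823.5, 768.6 and 1414 tags, with ratios of 0.933 (0.857 to 1.01) and 1.72 (1.60 to 1.84). It was 1 peak in wild type and 2 in each knockout, separated by a gap of under 2 kb. Region 2 (3:96143358-96149841), 1 peak in each list, held 419.5, 481.9 and 756.6 tags.

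At region 3 the knockouts did not differ beyond counting error. It (3:96150228-96153062) held 311.5 tags in wild type, with 444.4 in Bmal1KO and 413.5 in Mfp2KO, and its Bmal1KO ratio of 1.43 (1.26 to 1.61) was the highest of the chr3 cluster. Its Mfp2KO ratio was 1.33 (1.18 to 1.49), and Mfp2KO over Bmal1KO was 0.930 (0.829 to 1.04). Region 4 (3:96154407-96157348) followed and held 87.1, 80.6 and 295.3 tags, with ratios of 0.925 and 3.39 (2.79 to 4.12), the sole chr3 region past 2-fold in Mfp2KO. It was also called over more sequence in Mfp2KO, 2941 bp against 1970 bp in wild type.

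Some weaker chr3 regions were lower in the knockouts. Region 5 (3:96157950-96160244) held 64.6 tags in wild type and, in the knockouts, 39.1 (Bmal1KO) and 40.6 (Mfp2KO), ratios of 0.605 (0.421 to 0.859) and 0.628 (0.452 to 0.867). Region 8 (3:96180766-96182804) held 51.6, 34.3 and 32 tags, ratios of 0.665 (0.451 to 0.980) and 0.620 (0.425 to 0.890). Region 6 (3:96161755-96164257) held 45.6, 31.9 and 48.5 tags. In regions 5 and 8, and in region 5 of the larger chr13 cluster, both knockouts lay below the same wild-type library. Region 9 (3:96184483-96186173), at the end of the window, was called in Mfp2KO alone, with 234.8 tags over 1690 bp. This is the strongest member region missing from the wild-type list, and its input density of 15.9 tags per kb was the highest in any member region.

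Between the knockouts, Mfp2KO had more tags in 28 of the 32 member regions called in both, against 75.3% of all 15600 such regions. These were 6 of 8 in the smaller chr13 cluster, 16 of 16 in the larger and 6 of 8 at chr3. The median ratio of Mfp2KO to Bmal1KO was 1.76 over member regions, 1.83, 1.88 and 1.41 by cluster in the same order, and 1.40 over all regions. The chr3 median therefore stood at the level of the genome, and those of both chr13 clusters above it. These counts and medians are at library scaling, with 57.15% of Mfp2KO tags and 37.35% of Bmal1KO tags in peaks. The comparison between knockouts was not repeated with tags as a share of peak tags, where fewer regions would be higher in Mfp2KO.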

How the data were processed

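The data were 3 peak lists, 1 per H3K27ac ChIP library (Abcam ab4729 per the labels), on build mm39. Tools named in the submitters' processing notes, with no roles, are HOMER 5.1, MACS3 3.0.3, Picard 3.4.0, SAMtools 1.23, BWA 0.7.19-r1273 and fastp 1.0.1. The sources used here do not give the handling of duplicate and multiply mapped reads. Per the file headers, the authors called each list with HOMER findPeaks in histone style, with the matching input as control, in windows of 500 bp, with at least 4-fold over input at a p-value of 0.0001. The normalized tag count and input tags are deposited signal values, the former scaled to 10 M tags per the file headers. The fold is the authors' deposited ratio of ChIP to input and was used only as a filter. The authors' findPeaks score was deposited and is not reported.

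Peaks overlapping a window were members. Tags and lengths were summed, peaks of all lists overlapping by 1 bp were joined (pandas 2.3.3), and exact Clopper-Pearson 95% intervals on tag ratios used tags at library depth (SciPy 1.17.1). With 1 library per genotype there was no test. Joining and intervals were tested on simulated lists. The members and lists were chosen with earlier results of these data known. Regions named are, per window, the 6 with most wild-type tags, the 3 highest and 3 lowest ratios in each knockout, and the 3 strongest called in 1 or 2 lists, and a few others were named after their values were seen. Promoter sequences, gene names and gene order are from RefSeq GRCm38.p6. H3K27ac at histone transcription and processing factors, at macrophage markers, at histone genes elsewhere and at Bmal1 and Hsd17b4 was not analysed here, because that table is of another build, so the knockouts and the cell type were not checked.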

Additional observations from a re-analysis of the deposited data

How the results depend on the processing

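Each tag ratio stayed above 1 under the alternatives run, and in Mfp2KO more member regions were higher than lower past the fold used in each of them. All regions of the genome also had more higher than lower past 2-fold in Mfp2KO at library scaling, 31.1% against 18.5%. Under the peak-share and median scalings given below, all regions had fewer higher than lower. Requiring peaks wholly inside the window changed no value. With peaks of at least 8-fold over input, wild type kept 25 member peaks, the smaller chr13 cluster had ratios of 1.44 in Bmal1KO and 2.67 in Mfp2KO, the larger had 2.64 in Mfp2KO, and 0 regions were 2-fold higher in Bmal1KO. That count was also 0 with peaks of at least 6-fold, with a 3-fold limit and with at least 100 tags, an alternative added after the data were seen. With at least 100 tags, 5.69% of all regions were 2-fold higher in Bmal1KO. Widening the windows by 20 kb gave a chr3 Mfp2KO ratio of 1.88, and narrowing by 5 kb gave 1.66. With the wider windows 1 region was 2-fold lower in each knockout, where the background was 21.9% in Bmal1KO and 18.5% in Mfp2KO. As a share of peak tags, the ratios were 1.65, 1.71 and 1.17 in Mfp2KO at the smaller chr13, larger chr13 and chr3 clusters and 1.30 in Bmal1KO at the larger, with 9 regions 2-fold higher and 3 lower in Mfp2KO. Centred on the median ratio of all regions, they were 1.56, 1.49 and 1.35 in Bmal1KO and 1.81, 1.87 and 1.29 in Mfp2KO, with 12 higher and 3 lower in Mfp2KO. As tags per kb the ratios were 1.49, 1.63 and 1.27 in Bmal1KO and 2.62, 3.26 and 2.02 in Mfp2KO. Joining at 50% overlap gave 1 region lower in Bmal1KO, a 1.5-fold limit 4 higher and 3 lower in Bmal1KO and 3 lower in Mfp2KO, and a 3-fold limit 9 higher in Mfp2KO. For the counts at these limits, at 50% overlap and at 6-fold or 8-fold over input, no share over all regions is given. Those counts therefore do not place the members against the genome. The causes were not tested.

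No paired analysis was possible because each genotype has 1 library and the labels carry no replicate numbers, and for the same reason leaving out a library gives no value. Depth limits regions under about 20 tags, whose intervals span 2-fold or more. A peak missing from a list is not absence of the mark, and each list has its own input and tag minimum.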
